A study of Mus musculus with 3 samples.

Results

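The cartilage regulators and non-collagen matrix genes described here were 10 genes: the transcription factor genes Sox5, Sox6 and Sox9, the aggregate and matrilin genes Acan, Hapln1, Matn1 and Matn3, and the genes of small secreted or membrane proteins Cnmd, Cytl1 and Snorc. They were chosen by name, as all probe sets paired with that single gene symbol, which gave 25 of 34945 probe sets and 10 of 18193 genes. Expression was read on Affymetrix mouse genome arrays in C3H10T1/2, a mouse embryonic cell line with mesenchymal stem cell properties that can be turned into cartilage, bone or fat cells in culture. The Venus-Mkx cells carried a pMIGR retroviral construct with the coding sequence of Venus, a fluorescent protein, and of the homeobox protein Mohawk (Mkx). The Venus cells carried the same vector with Venus alone, and both were kept in medium with puromycin after infection. Whether the array RNA came from 1 clone or a pool is not stated. The remaining sample was C3H10T1/2 with no construct, for which no virus and no puromycin is named, so that the construct, the infection and the puromycin cannot be told apart between Venus and C3H10T1/2. All 3 shared the parent line and its growth medium, and no induction of cartilage is named for these samples. RNA of each condition was hybridized to 1 array, so no difference has a replicate check and no p-value is given.

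Sox9 is the transcription factor without which cartilage does not form, and Sox5 and Sox6 are close partners that bind beside it on cartilage enhancers. The matrix that these factors switch on is built from collagen fibrils and from aggrecan, a large proteoglycan that binds along hyaluronan and is held there by a link protein. Matrilins are adaptors that tie collagen fibrils to aggrecan, and chondromodulin, from Cnmd, is a cartilage glycoprotein that keeps blood vessels out.

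Values are log2 probe set values. The floor used for a level was 4.34, the median of all values, and a value below it cannot be told from background here. Genes with at least 1 value at or over the floor are called measured, 11169 of 18193 in all, and a call means a difference of at least 2-fold. Where 1 of the values compared was below the floor, the fold is also given against the floor, as "at least". Mkx itself read 2.71 on the array labelled Venus-Mkx, against 7.43 in Venus and 6.88 in C3H10T1/2, by its 1 probe set. This goes against the label, and whether the probe set lies in the coding sequence of the construct is not known here, so every direction below is that of the array labelled Venus-Mkx. Of the 12 mesenchymal markers with a probe set, all were above the floor on all 3 arrays, and 3 were higher in Venus-Mkx than in both controls, beside 6.82% of all measured genes. Their summed log2 value was 130.0 in Venus-Mkx, 125.6 in Venus and 124.1 in C3H10T1/2. Of 8 markers each of macrophages, endothelium and epithelium, 6 of each list were below it on all 3. Those at least 2-fold higher in Venus-Mkx than in both controls were Csf1r and Tek, at 6.62 and 5.95 in Venus-Mkx, against 5.39 and 4.02 in Venus and 4.45 and 4.53 in C3H10T1/2. The others that reached the floor were Cd14, Epcam, Krt5 and Eng, which stands on the mesenchymal list too. Epcam read 7.60 in Venus-Mkx, 7.03 in Venus and 6.74 in C3H10T1/2, and Cd14 read 6.49, 6.99 and 6.62. Eng read 7.55, 7.12 and 7.28, and Krt5 read 4.53 on each array. The sums that follow include the values below the floor. The summed log2 value of the macrophage list was 30.3 in Venus-Mkx, 29.2 in Venus and 28.0 in C3H10T1/2, that of the endothelial list was 29.8, 27.2 and 28.0, and that of the epithelial list was 32.7, 31.9 and 31.9. Their part in the values of the cartilage genes was not tested. In RNA of a whole culture, fewer cells of a type and less RNA per cell cannot be told apart.

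Of the 10 genes, 7 were measured: Sox6, Sox9, Acan, Hapln1, Matn3, Cnmd and Cytl1. Sox5, Matn1 and Snorc stayed below the floor on all 3 arrays. Sox9, Cnmd and Cytl1 were at least 2-fold lower in Venus-Mkx than in either control. Sox6, Cnmd and Cytl1 were already lower by that much in the Venus array, set against C3H10T1/2. For Sox6 the fold was 2.02 by its probe set with the highest mean, at the threshold. Acan and Hapln1 were also lower there as read, with Venus values below the floor. The call of Sox9 between Venus-Mkx and Venus was at the threshold too, at 2.05-fold. Matn3 alone of the 7 stepped upwards towards Venus-Mkx. A gene that was high in C3H10T1/2 alone passed the filter through that array, so the counts of measured genes are a description.

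**Figure D1:**
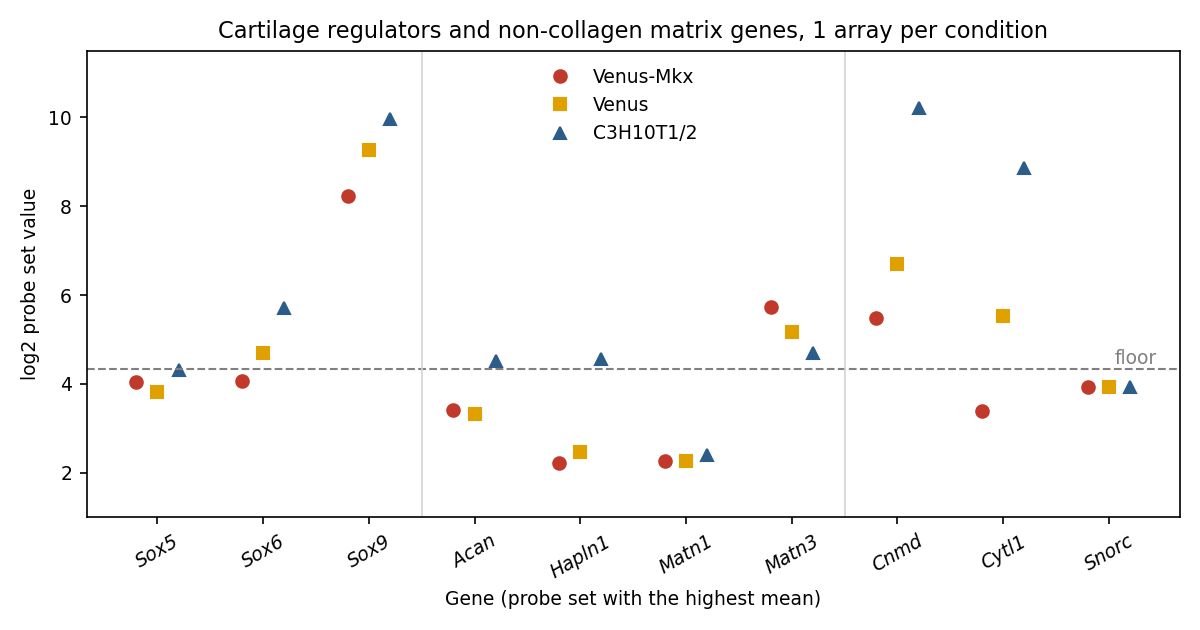
Log2 probe set value (vertical axis) of each of the 10 genes (horizontal axis, the probe set with the highest mean), with 1 point per array: circles are Venus-Mkx, squares Venus and triangles C3H10T1/2. The dashed line is the floor of 4.34, and the points of Sox5, Matn1 and Snorc all lie below it, whereas those of Sox9, Matn3 and Cnmd all lie above it.

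Among the transcription factors, Sox9 was well above the floor on every array and was lowest in Venus-Mkx. Its probe set with the highest mean, 1451538_at, read 8.24 in Venus-Mkx, 9.27 in Venus and 9.96 in C3H10T1/2. The values stepped down over the conditions, with Venus between the other arrays. The difference was −1.03 from Venus and −1.72 from C3H10T1/2 on the log2 scale, a level 2.05-fold and 3.30-fold lower. A second probe set, 1424950_at, read 7.92, 8.99 and 9.71 on the same arrays, with differences of −1.07 and −1.79. Its readings kept the same order and nearly the same spacing. The remaining probe set, 1433889_at, was below the floor throughout at 2.72, 3.14 and 3.37, which is also the same order but cannot be read as a level. Averaged over the 3 probe sets, the difference of Sox9 from Venus was −0.84, short of 2-fold.

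Sox6, which helps Sox9 activate cartilage genes, was above the floor in C3H10T1/2 and Venus and below it in Venus-Mkx. Its probe set with the highest mean, 1434918_at, read 4.06 in Venus-Mkx, 4.70 in Venus and 5.72 in C3H10T1/2. That is at least 1.28-fold lower than Venus and at least 2.60-fold lower than C3H10T1/2. A second probe set, 1427677_a_at, which reads several transcripts of the gene, gave 3.42, 4.70 and 6.35, at least 4.03-fold below C3H10T1/2. Another, 1447655_x_at, whose probes may also match other sequences, gave 2.37, 3.71 and 5.44. All 3 of these probe sets stepped down in the same order, and the difference between Venus and C3H10T1/2 ran over them from −1.02 to −1.73. Their Venus-Mkx values were below the floor, and so was the Venus value of 1447655_x_at, so the size of the difference from Venus cannot be read beyond the floor: it was −0.36 by 1434918_at and by 1427677_a_at and 0 by 1447655_x_at with values raised to it. The fourth, 1426018_a_at, was below the floor on every array.

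Sox5, the closest relative of Sox6, was read by 7 probe sets, and none reached the floor. The one with the highest mean, 1432189_a_at, read 4.05 in Venus-Mkx, 3.82 in Venus and 4.31 in C3H10T1/2. Another, 1455535_at, read 4.14 in Venus-Mkx, against 3.06 in both Venus and C3H10T1/2. A difference of 1.08 was read there, but between values that cannot be told from background. Of the genes for the factors closest to Sox9, Sox8 was below the floor on all arrays, and Sox10 read 4.55 in Venus-Mkx, 4.35 in Venus and 4.55 in C3H10T1/2. Sox13, of the Sox5 and Sox6 group, read 4.39, 4.35 and 4.44, close to the floor.

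**Figure D2:**
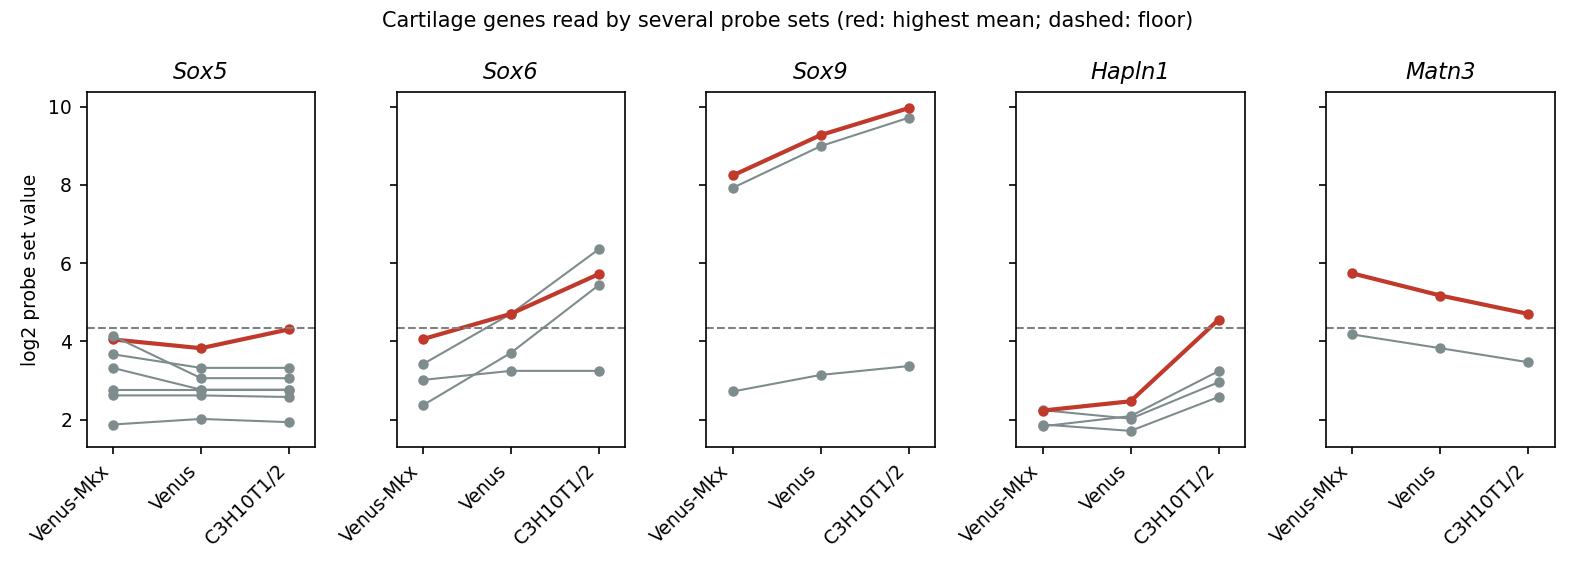
Log2 probe set values (vertical axis) on the Venus-Mkx, Venus and C3H10T1/2 arrays (horizontal axis) for the 5 genes read by more than 1 probe set, with a line joining the values of each probe set. Red marks the probe set with the highest mean and the dashed line is the floor of 4.34. The 3 probe sets of Sox9 and 3 of the 4 of Sox6 are lowest in Venus-Mkx and highest in C3H10T1/2, and both of Matn3 run the other way.

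Of the aggregate genes, Acan and Hapln1 reached the floor in C3H10T1/2 alone. Acan, which encodes aggrecan, read 3.41 in Venus-Mkx, 3.33 in Venus and 4.51 in C3H10T1/2. Hapln1, which encodes the link protein, read 2.23, 2.47 and 4.55 by 1438020_at. Both genes stood just above the floor in C3H10T1/2, and the Venus and Venus-Mkx values lay close together below it. As read, Acan was 2.15-fold lower in Venus-Mkx and 2.27-fold lower in Venus than in C3H10T1/2, but no more than 1.12-fold is shown once the floor is taken into account. For Hapln1 the differences as read were −2.32 and −2.08, and a fold of at least 1.16 is shown. The 4 probe sets of Hapln1 all read highest in C3H10T1/2, with differences between Venus-Mkx and C3H10T1/2 from −2.32 to −0.70, although 3 of them were below the floor on all arrays. Between Venus-Mkx and Venus they differed in both directions, from −0.26 to 0.22.

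Of 14 genes of lecticans, link proteins, hyaluronan synthases, aggrecanases and the hyaluronan receptor Cd44, Acan and Hapln1 among them, 10 were measured. Acan and Hapln1 were the 2 called lower between Venus and C3H10T1/2 as read, beside 0.555% of all measured genes, and with values raised to the floor 0 were. Adamts5 was lower and Adamts4 higher in Venus-Mkx than in both controls. Adamts4, which encodes an aggrecan-cleaving protease, read 9.79 in Venus-Mkx, 7.05 in Venus and 6.22 in C3H10T1/2. Adamts5, which encodes the other main aggrecanase, read 9.41, 11.82 and 11.70. The aggrecanase genes thus differed from the controls in opposite directions. Vcan, which encodes versican, a lectican of many connective tissues, read 9.92 in Venus-Mkx, 10.85 in Venus and 10.84 in C3H10T1/2. Hapln3, a link protein gene, read 4.47, 4.41 and 4.41.

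Matn3, a matrilin gene of growing cartilage, was the exception in direction. By 1422148_at it read 5.74 in Venus-Mkx, 5.17 in Venus and 4.70 in C3H10T1/2, all above the floor. These values stepped up towards Venus-Mkx, 0.57 above Venus and 1.04 above C3H10T1/2, a level 2.05-fold higher than in C3H10T1/2. The second probe set, 1455948_x_at, read 4.18, 3.82 and 3.47, below the floor but in the same order. The call against C3H10T1/2 sat at the threshold and was lost when arrays were centred on their medians, with a difference of 0.99, or when the probe sets were averaged, with 0.87. Matn1, the matrilin most restricted to cartilage, read 2.26 in Venus-Mkx, 2.26 in Venus and 2.40 in C3H10T1/2. No level of Matn1 could therefore be read. Among the other matrilins, Matn2 read 6.36 in Venus-Mkx, 7.69 in Venus and 7.22 in C3H10T1/2, a difference of −1.33 from Venus. Its second probe set differed by −1.28. Matn4 read 6.45, 5.83 and 6.51, so that Venus alone stood lower. The 3 matrilin genes with levels above the floor thus had 3 different orders of the conditions.

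Cnmd and Cytl1 showed the widest differences of the 10 genes. Cnmd read 5.48 in Venus-Mkx, 6.70 in Venus and 10.21 in C3H10T1/2, by 1 probe set and above the floor on every array. Cytl1, which encodes a small secreted protein made in cartilage, read 3.40 in Venus-Mkx, 5.53 in Venus and 8.85 in C3H10T1/2. Both genes were lowest in Venus-Mkx, intermediate in Venus and highest in C3H10T1/2. Cnmd was 26.5-fold lower in Venus-Mkx than in C3H10T1/2 and 2.32-fold lower than in Venus. Cytl1 was at least 22.8-fold lower than in C3H10T1/2, at least 2.28-fold lower than in Venus, and 9.97-fold lower in Venus than in C3H10T1/2. The larger part of each difference lay between the 2 controls: 74.3% of the log2 difference of Cnmd between Venus-Mkx and C3H10T1/2 was already there in Venus. For Cytl1 the share was 60.8% as read and 73.6% with the Venus-Mkx value raised to the floor, whereas for Sox9 it was 40.0%. Ranked over 11169 genes by the difference between Venus-Mkx and C3H10T1/2, Cytl1 was number 11 from the bottom and Cnmd number 21. Between Venus and C3H10T1/2, Cnmd was number 2 from the bottom and Cytl1 number 3. Between Venus-Mkx and Venus they were less extreme, with Cytl1 number 202 from the bottom and Cnmd number 570. Tnmd, which encodes tenomodulin, the tendon protein most like chondromodulin, read 8.01 in Venus-Mkx, 9.70 in Venus and 10.74 in C3H10T1/2. Its order was that of Cnmd. Snorc, which encodes a proteoglycan of the chondrocyte membrane, read 3.94 on each array, an identical value below the floor. Of all probe sets on the array, 24.6% had the same value in all 3 conditions.

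For 3 of the genes that stepped down, the 250 bases before their annotated starts are shown, from RefSeq on GRCm38.p6, so that their letters can be set beside each other. Sox factors bind DNA by an HMG box that prefers the letters ACAATG or ACAAAG, and these were searched on both strands. Of the 10 genes, 8 had an entry by symbol, with 13 start sites in all, 6 of them of Sox6, for which the window farthest upstream is shown. Capitals mark a match.
Cnmd, chr14:79662184-79662433, minus strand: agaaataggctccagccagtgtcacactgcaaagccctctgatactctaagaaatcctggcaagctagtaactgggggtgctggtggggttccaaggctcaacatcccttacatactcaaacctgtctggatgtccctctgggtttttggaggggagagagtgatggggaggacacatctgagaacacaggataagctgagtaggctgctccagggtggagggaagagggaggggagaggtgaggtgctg
Cytl1, chr5:37735269-37735518, plus strand: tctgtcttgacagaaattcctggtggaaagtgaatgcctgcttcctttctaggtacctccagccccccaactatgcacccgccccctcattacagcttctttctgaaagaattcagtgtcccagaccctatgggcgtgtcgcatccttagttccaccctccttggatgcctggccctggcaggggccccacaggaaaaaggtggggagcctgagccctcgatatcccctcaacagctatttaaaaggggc
Sox6, chr7:116038745-116038994, minus strand: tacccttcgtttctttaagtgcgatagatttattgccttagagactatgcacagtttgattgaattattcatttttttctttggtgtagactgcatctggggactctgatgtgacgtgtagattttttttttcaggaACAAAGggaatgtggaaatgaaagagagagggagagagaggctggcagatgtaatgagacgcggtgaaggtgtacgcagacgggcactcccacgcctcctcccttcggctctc
The windows of Cnmd and Cytl1 held neither motif, and neither did those of Acan, Hapln1, Matn1 and Matn3. That of Sox6 held ACAAAG, beginning 113 bases before the start. Over the 13 windows, 6 had a match, 5 of them at Sox6 starts and 1 at Sox5, beside 25.2% of 32851 windows of all genes: 10.7% with ACAATG and 16.5% with ACAAAG. A match is a description of the letters and not a site. The windows of Cnmd and Cytl1 had a GC content of 54.0% and 54.8%, near the median of 52.4% over all windows, and held 0 and 4 CpG pairs, against a median of 6. The window of Acan differed from them, with a GC content of 74.4% and 26 CpG pairs.

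Between Venus-Mkx and Venus, 3 of the 7 measured genes were lower (Sox9, Cnmd and Cytl1), beside 6.68% of all measured genes, and none was higher, beside 7.42%. With values raised to the floor the same 3 were lower, beside 6.21%, and none was higher, beside 6.74%. They were also the ones lower than both controls, beside 5.34% as read and 4.97% with values raised to the floor. Between Venus-Mkx and C3H10T1/2, 6 were lower as read, beside 6.80%, and Matn3 was higher, beside 8.74%. Without Acan and Hapln1, whose folds are not shown over the floor, 4 were lower, beside 6.38% under that rule. Between Venus and C3H10T1/2, 5 were lower as read, beside 0.555% of all measured genes, and 3 with values raised to the floor (Sox6, Cnmd and Cytl1), beside 0.466%. None was higher, beside 1.49% as read and 1.19% with values raised. The genes were named with earlier results of these data known, so no test stands behind these counts. The comparisons share arrays: a gene that happened to read high in C3H10T1/2 would be lower against it in both Venus and Venus-Mkx.

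The median log2 difference of the 7 measured genes was −0.65 between Venus-Mkx and Venus, −1.72 between Venus-Mkx and C3H10T1/2 and −1.19 between Venus and C3H10T1/2, where the median over all 11169 measured genes was 0 each time. Over all 10 genes it was −0.12, −1.38 and −0.85. With values below the floor raised to it, the medians of the 7 were −0.36, −1.38 and −0.69. The −1.19 as read was the value of Acan, which reached the floor in C3H10T1/2 alone and differed by −0.17 with values raised. The SD of the differences over all measured genes was 0.94 between Venus-Mkx and Venus and 0.34 between Venus and C3H10T1/2, which is the spread of genes and not a replicate error. A stepwise order with Venus between the other arrays was read downwards in 5 of the 7 (Sox6, Sox9, Hapln1, Cnmd and Cytl1), beside 19.9% of all measured genes, and upwards in Matn3, beside 20.4%. For Hapln1 both Venus-Mkx and Venus were below the floor, and 2 of its other probe sets read higher in Venus-Mkx than in Venus. Calls of lower at both steps, between Venus-Mkx and Venus and between Venus and C3H10T1/2, were rarer: 20 genes had it as read, or 0.179% of all measured genes, and Cnmd and Cytl1 were among them. With values raised to the floor there were 17 such genes, or 0.152%, and both remained. Of those 17, 7 stand in the lists used here: Cnmd, Cytl1, Col9a1 and Col27a1, which encode cartilage collagens, Fgfr3, a receptor gene of growth plate cartilage, Otor, which encodes otoraplin, and Tnmd. The others were 8430436N08Rik, C1galt1, Col8a1, Cyp26b1, Fzd4, Pappa2, Rspo3, Rtl3, Slc26a7 and Zdhhc14. The share of all measured genes that stand in the lists was not counted, so the 7 are a description.

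**Figure D3:**
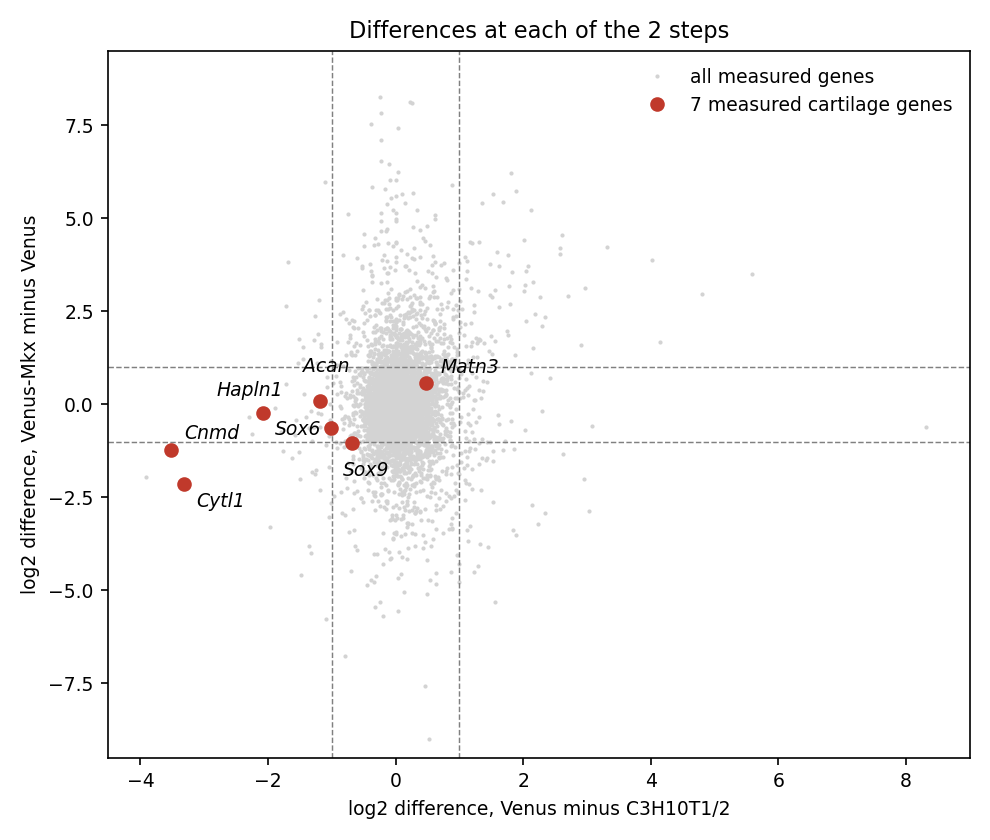
Log2 difference of Venus from C3H10T1/2 (horizontal axis) against that of Venus-Mkx from Venus (vertical axis), with 1 array per condition. Grey points are the 11169 measured genes, red points the 7 measured cartilage genes described here, and dashed lines mark 2-fold. Cnmd and Cytl1 lie beyond 2-fold below 0 on both axes, Sox6, Acan and Hapln1 on the horizontal axis alone as read, and Sox9 on the vertical axis alone.

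The genes nearest in pattern to each of the 7 were found as the 3 measured genes with the smallest distance over the 3 arrays, after each gene's values were centred on their mean. With 3 arrays such a likeness is a description. For Cytl1 the nearest were Col9a1, at a distance of 0.43 on the log2 scale, Cnmd, at 0.69, and Col8a1, at 1.03. Col9a1 read 3.40 in Venus-Mkx, 5.36 in Venus and 9.26 in C3H10T1/2. For Cnmd the nearest were Cytl1, Col9a1 and Cd24a, at 0.69, 0.81 and 1.24. Col8a1 and Cd24a stand in none of the lists used here. For Sox9 the nearest were Trib3, Gpr39 and Fads3, at 0.0053 to 0.069, and for Sox6 they were Pag1, Susd5 and Faah, at 0.048 to 0.093. Acan lay nearest to Fibin, Marchf3 and P3h2, which all stayed above the floor on every array. Fibin read 5.23 in Venus-Mkx, 5.27 in Venus and 6.49 in C3H10T1/2. The values of Acan and Hapln1 used for this were below the floor outside C3H10T1/2, so the likeness is to values as read. Hapln1 lay nearest to Ankrd37, Cldn19 and Frzb, which encodes a secreted Wnt inhibitor of cartilage, and Frzb read 4.53, 5.27 and 7.07. Matn3 lay nearest to Cd276, Cfap126 and Chid1, at 0.0035 to 0.024.

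The other genes of cartilage moved both ways on the array labelled Venus-Mkx. Of 78 genes on 5 further lists, 47 were measured, 13 were lower and 8 higher than both controls, beside 5.34% and 6.82% of all measured genes. Of 6 measured cartilage collagen genes, 4 were lower and 1 was higher. Col11a1, which encodes a chain of the fibrils of cartilage, read 7.56 in Venus-Mkx, 9.55 in Venus and 10.05 in C3H10T1/2. Col11a2, which encodes another chain of the same collagen, was the higher one at 6.88, 4.02 and 3.98. Of 12 measured genes of other matrix proteins, 3 were lower and 3 higher. Otor, a secreted protein gene of cartilage and the inner ear, read 2.96 in Venus-Mkx, 6.97 in Venus and 8.29 in C3H10T1/2, and Prelp, a leucine-rich proteoglycan gene, read 7.17, 10.60 and 10.59. On the other side, Edil3, which encodes an integrin-binding matrix protein, read 9.74, 8.05 and 6.75, and Prg4, which encodes lubricin of the joint surface, read 5.57, 3.08 and 3.91. The matrix list therefore held genes at both ends, with a median difference of 0.09 from Venus.

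Of 16 measured regulators and cofactors of chondrogenesis, 4 were lower than both controls, 1 was higher and 11 were neither. Wwp2, a ubiquitin ligase gene that is a target of Sox9 in the mouse, read 7.45 in Venus-Mkx, 9.70 in Venus and 10.46 in C3H10T1/2. Arid5b, which encodes a chromatin cofactor of Sox9 in the mouse, read 7.66, 10.08 and 10.03. Wwp2 thus had the stepwise order of Sox9, whereas Arid5b was alike in the controls. Arid5a, a relative of Arid5b, was the higher gene, at 6.40 in Venus-Mkx, 5.37 in Venus and 5.12 in C3H10T1/2. Of 9 measured cartilage signalling genes, 2 were lower (Fgfr3 and Bmp4) and 2 higher (Gdf5 and Wnt5a). Fgfr3, which restrains growth plate chondrocytes, read 5.53 in Venus-Mkx, 6.79 in Venus and 8.55 in C3H10T1/2. Gdf5, a signal of forming joints, read 7.37, 3.03 and 3.14. Its level in Venus-Mkx was thus far above controls that lay below the floor. Of 5 measured genes of hypertrophic cartilage, Mef2c was lower and Mmp13, a collagenase gene, was higher at 8.28 in Venus-Mkx, 1.81 in Venus and 1.91 in C3H10T1/2. Col10a1, the collagen gene that defines hypertrophic cartilage, was below the floor on all arrays.

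**Figure D4:**
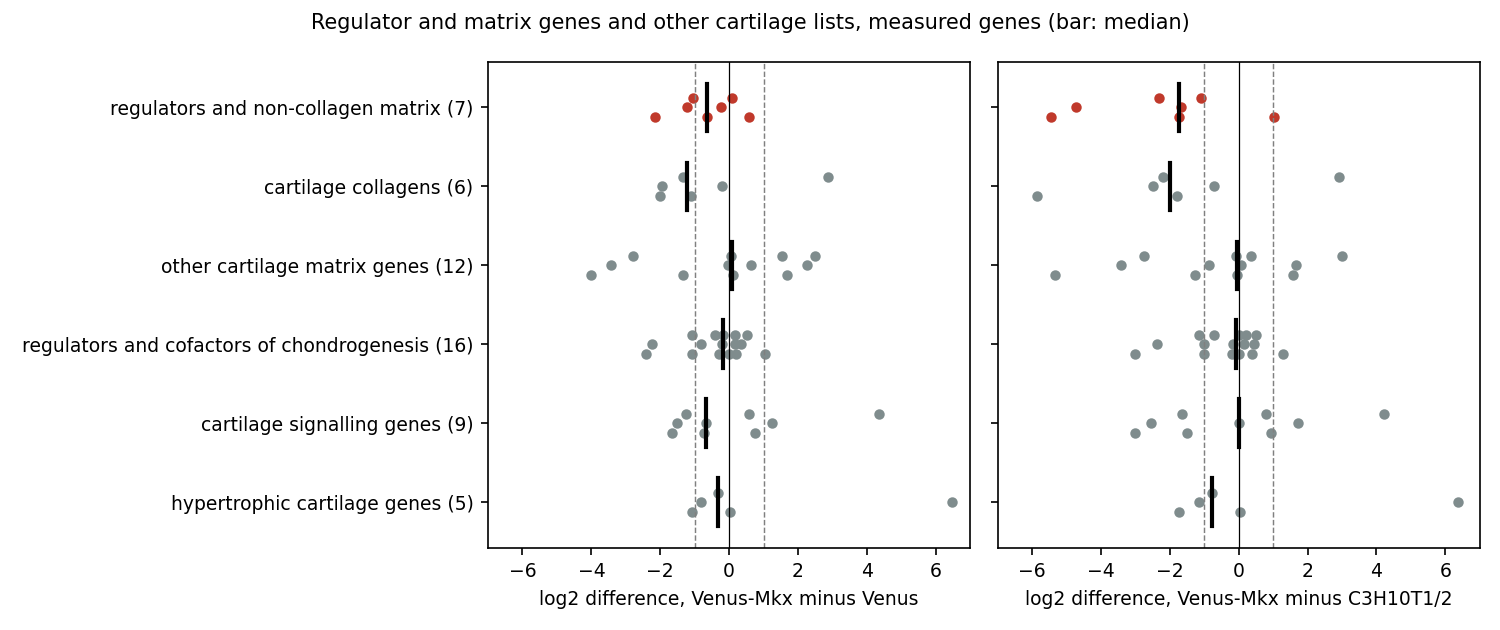
Log2 difference of Venus-Mkx from Venus (left panel) and from C3H10T1/2 (right panel) for the measured genes of each list, with 1 array per condition. Genes are drawn as points and list medians as black bars, list names carry the count of genes plotted, and 2-fold is marked by dashed lines. The medians of the 7 genes described here, in red, are −0.65 and −1.72, and those of the cartilage collagens are −1.22 and −1.99, and each of the 6 lists drawn has points on both sides of 0.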

How the data were processed

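RNA of C3H10T1/2 cells, C3H10T1/2 cells infected with Venus and C3H10T1/2 cells infected with Venus-Mkx was hybridized to 1 Affymetrix mouse genome array each, after labelling with the GeneChip 3′ IVT Express kit. The authors deposited a log2 value per probe set on a scale common to the arrays. The submitters' processing notes name RMA, with no version, and the methods name MAS 5.0. The values ran from 1.44 to 14.00, which linear MAS 5.0 signals would not, and were used with no further normalization. Of 45101 probe sets, 64 controls were left out, 34945 had 1 gene symbol, 932 several and 9160 none in the platform annotation. Each gene was represented by whichever of its probe sets had the highest mean. The floor for a level was the median of all values, 4.34, and no detection calls were used here. Precision at low levels is set by background, and the number of arrays limits all of it.

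Log2 differences were taken between arrays and a difference of at least 2-fold was called, with the share of all measured genes called by the same rule beside it. No p-value was computed. The text names all 10 genes, Mkx and the relatives of the 10. It also names up to 4 genes of each further list by their difference from the nearer control, and the 3 genes nearest in pattern. For Sox5, Sox6, Hapln1, Matn2 and Sox10 not every probe set is given with its values. Vcan, Hapln3, Col10a1, Csf1r, Tek, Cd14, Epcam, Krt5, Eng, the genes lower at both steps and those named for a count were added after their values were seen. Genes and lists were chosen with earlier results of these data known. Alternatives covered the floor, the probe sets of a gene, the scale and the fold threshold. Promoter windows came from RefSeq on GRCm38.p6, which served also for names. Python 3.11.15, NumPy 2.4.6, pandas 2.3.3 and matplotlib 3.10.9 were used.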

Additional observations from a re-analysis of the deposited data

How the results depend on the processing

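No replicate could be left out, and no paired analysis was possible because each condition had 1 array. The count of genes lower in Venus-Mkx than in Venus was 1 at 3-fold, against 3 at 2-fold, and so was the count lower than both controls. Against C3H10T1/2, 3 genes were lower with the floor at the 75th percentile, against 6, and Matn3 was no longer called higher (0 genes) with that floor, with the mean of all probe sets, with arrays centred on their medians or at 3-fold. Between Venus and C3H10T1/2, 2 genes were lower at the higher floor and 3 at 3-fold, against 5. On the further cartilage lists, 8 genes were lower than both controls at 3-fold, against 13, and 5 were higher with the floor at the 75th percentile, against 8.

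The median difference between Venus-Mkx and Venus, −0.65, was −0.12 when genes below the floor were kept, −1.22 when it was set at the 75th percentile, −0.86 over the mean of all probe sets, −0.69 with centred arrays and −0.66 after quantile normalization. Between Venus-Mkx and C3H10T1/2, −1.72 became −1.38, −4.73, −1.68 and −1.77 under the first 4 of these settings. Between Venus and C3H10T1/2, −1.19 became −0.85, −3.32 and −1.14 under the first 3. The floor changes which genes enter, and at the 75th percentile only Sox9, Cnmd and Cytl1 did. The −1.22 and −4.73 there are the values of Cnmd, and the −3.32 is that of Cytl1. Centring made the array medians equal, which were 4.39 in Venus-Mkx and 4.34 in each control. The −0.66 after quantile normalization is the value of Sox6, as was the −0.65. Over the mean of all probe sets, the −0.86 lies between the values of Sox6, at −0.875, and Sox9, at −0.84. No difference of a single gene that was called turned its sign under these settings. Sox9 against Venus fell short of 2-fold over the mean of all probe sets, at −0.84. That mean includes 1433889_at, which was below the floor on every array, at −0.42. The probe sets of Sox9 above the floor, 1451538_at and 1424950_at, gave −1.03 and −1.07. Levels near background limit what can be read for Sox6, Acan, Hapln1, Sox5, Matn1 and Snorc.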
